A study of Mus musculus with 2 samples.

Results

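The Cyp2b genes of the mouse encode a subfamily of cytochrome P450 enzymes that lie side by side on chromosome 7. The members described here were every probe whose gene name on the array was Cyp2b followed by a number, with each probe kept separate. This gave 8 probes of 4 genes, Cyp2b9, Cyp2b10, Cyp2b13 and Cyp2b19, out of 41174 distinct probes on 41534 spots per array. One of the Cyp2b10 probes carries the older name Cyp2b20. No spot carried the name Cyp2b23, the 5th gene named for the group. The group was chosen by the DKO over WT ratios measured on these same arrays, so the values below are a description of the members and no test supports them.

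Cytochrome P450 enzymes of the Cyp2b subfamily sit in the membrane of the endoplasmic reticulum and insert an atom of oxygen into drugs, steroids and fatty acids. They draw their electrons from the reductase Por and, for some substrates, from cytochrome b5. In liver, Cyp2b10 is the classic target of the nuclear receptor CAR (Nr1i3) and responds to phenobarbital, Cyp2b9 and Cyp2b13 are known as female-predominant enzymes, and Cyp2b19 is known as an arachidonic acid epoxygenase of the skin's keratinocytes. The genes arose by duplication and their sequences are close, so that a probe designed to one can also match another.

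The closeness of the genes is visible in the bases just upstream of their starts. The windows below cover the 250 bases before the RefSeq start of the 3 genes that had a probe called higher in DKO, 5′ to 3′ on the strand of the gene, with the half-site AGGTCA in capitals. All are from RefSeq, assembly GRCm38.p6, on the plus strand, at chr7:26173159-26173408 for Cyp2b9, chr7:26061245-26061494 for Cyp2b13 and chr7:25897408-25897657 for Cyp2b10.
Cyp2b9: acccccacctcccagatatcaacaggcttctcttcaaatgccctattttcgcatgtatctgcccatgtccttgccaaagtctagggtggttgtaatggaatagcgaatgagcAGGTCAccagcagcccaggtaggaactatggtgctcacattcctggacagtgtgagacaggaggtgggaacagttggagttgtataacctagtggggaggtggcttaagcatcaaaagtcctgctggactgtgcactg
Cyp2b13: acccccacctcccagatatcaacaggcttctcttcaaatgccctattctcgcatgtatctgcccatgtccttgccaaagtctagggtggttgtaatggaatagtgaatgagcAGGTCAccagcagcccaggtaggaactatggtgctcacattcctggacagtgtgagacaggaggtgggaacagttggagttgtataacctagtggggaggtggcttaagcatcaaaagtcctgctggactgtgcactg
Cyp2b10: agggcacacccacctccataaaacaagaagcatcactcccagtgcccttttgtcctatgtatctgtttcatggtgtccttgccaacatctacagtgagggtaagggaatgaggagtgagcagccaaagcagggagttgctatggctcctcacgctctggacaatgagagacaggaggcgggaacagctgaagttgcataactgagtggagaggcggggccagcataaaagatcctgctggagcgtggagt
The Cyp2b9 and Cyp2b13 windows were identical at 248 of 250 bases (99.2%), and differed at 203 and 147 bases before the start. Cyp2b10 matched Cyp2b9 at 182 of 240 aligned bases (75.8%). AGGTCA is the core half-site bound by many nuclear receptors, among them the RORs, and was searched together with its reverse complement TGACCT. It began 138 bases before the start in both Cyp2b9 and Cyp2b13, 121 bases before it in Cyp2b19 and 164 bases before it in Cyp2b23, and the window of Cyp2b10 did not hold these letters. Of 32851 windows of the same length, 4607 (14.0%) held the half-site, and since the genes arose by duplication their matches are not independent. The TATA box TATAAA, the CCAAT box and the E-box CACGTG were searched as well. Of these only CCAAT was found, in Cyp2b23, and 33.8% of all windows held it. A match of letters is a description of the sequence, and the arrays measured no binding.

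RNA of interscapular brown fat, the tissue that burns lipid to make heat, was compared between wild-type mice (WT) and double-knockout mice (DKO), whose losses include RORa, a nuclear receptor. Both groups were C57BL/6 males aged 2 to 3 months, 4 per genotype, from which tissue was taken around circadian time 20. WT and DKO RNA shared each of 2 whole-genome arrays, on which DKO carried Cy5 on the first and Cy3 on the second. The labels do not state if the RNA of the 4 mice was pooled, if the same RNA went onto each array, or if the genes were lost in 1 tissue or throughout the animal. Each genotype therefore counts as 1 replicate, and n = 2 below refers to arrays. The SD spans dye and measurement differences and any difference in the RNA between the arrays. It does not measure the spread between mice, and the number of arrays limits the precision.

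Signals were well above background for 77.6% to 85.4% of spots, depending on array and dye. Over the 32424 measured probes, defined as well above background in at least 1 genotype on both arrays, the log2 ratios of the arrays correlated at r = -0.02. Rora was lower in DKO on both arrays, at a log2 ratio of -0.38 ± 0.04 and -0.47 ± 0.10 (SD, n = 2) for its 2 probes, and at -0.96 ± 0.07 and -1.52 ± 0.14 with the software's ratios, which carry no added offset. A probe was called when its mean was at least 2-fold, each array showed at least 1.5-fold in the same direction, and the signal of the higher genotype passed the background test on each array. In simulated data this rule called 2 of 50 probes changed 2-fold and 26 of 50 changed 3-fold, so uncalled probes can have changed.

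By this rule, 3 of the 8 Cyp2b probes were called higher in DKO, 0 were called lower and 5 were not called. The called probes were 1 each of those named for Cyp2b9, Cyp2b13 and Cyp2b10. Among all 32424 measured probes, 32 were called higher (0.0987%) and 7 lower (0.0216%), and since the members were chosen on this contrast nothing is read from their larger share. Of all 39 calls, 82.1% were higher in DKO, against 64.9% with the scanner software's own ratios. All 8 Cyp2b probes were well above background in both genotypes on both arrays and none was saturated, so each had a measured ratio. In raw units some WT signals were dim. Net of local background, WT on the called Cyp2b10 probe read 56 and 66 on the first and second array, over backgrounds of 70 and 56. On the called Cyp2b13 probe WT read 80 and 94, over backgrounds of 69 and 56. The probes fell into 3 called at means of 1.51 to 2.39, a pair between 0.52 and 0.81, and 3 between -0.0026 and 0.08.

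**Figure D1:**
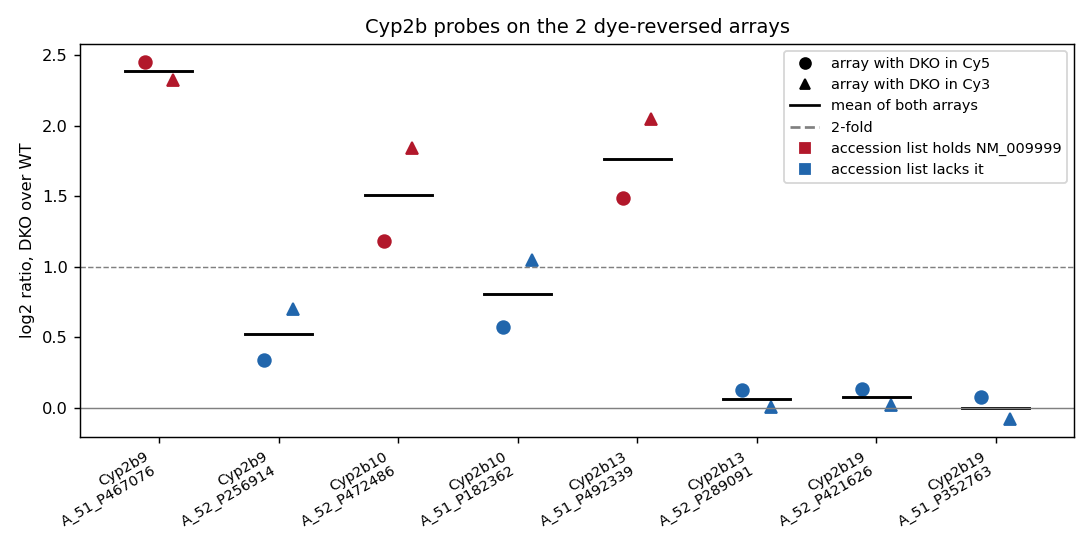
The log2 ratio of DKO over WT (vertical axis) is plotted for each of the 8 Cyp2b probes (horizontal axis), with circles for the array with DKO in Cy5, triangles for the array with DKO in Cy3, black bars for the mean and a dashed line at 2-fold. The 3 probes in red, with means of 1.51, 1.76 and 2.39, lie above that line on both arrays, and of the 5 in blue only the Cyp2b10 probe crosses it, on 1 array.

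Cyp2b10, the xenobiotic-responsive enzyme, was read by a pair of probes that were both higher in DKO. On the probe A_52_P472486 the processed signal was 996 in WT and 3306 in DKO on the first array, and 856 in WT and 5286 in DKO on the second. Both DKO signals lay above both WT signals. The log2 ratios were 1.18 and 1.84, a mean of 1.51 ± 0.46 (SD, n = 2) or 2.85-fold. The software's own ratios gave 2.18 ± 0.63 or 4.53-fold, and a smaller offset of 16 gave 1.82. The software's background correction and normalisation both differ from those used here, and their parts were not separated. The other Cyp2b10 probe, A_51_P182362, read 1606 in WT and 2745 in DKO on the first array and 1410 and 3805 on the second. Its signals did not overlap between genotypes either, but its log2 ratios of 0.57 and 1.05 averaged 0.81 ± 0.34 or 1.75-fold, below the rule. With the software's ratios it stood at 1.10 ± 0.47 and was called.

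Cyp2b13, a steroid-metabolising enzyme of female liver, read differently on its probes. On A_51_P492339 the signal was 1391 in WT and 5401 in DKO on the first array, and 1217 and 7770 on the second. Here DKO was far above WT on both arrays, at log2 ratios of 1.48 and 2.04 and a mean of 1.76 ± 0.40 or 3.40-fold (2.32 ± 0.51 with the software's ratios). On A_52_P289091 the signal was 1679 in WT and 1859 in DKO on the first array, and 1365 and 1402 on the second. Its signals overlapped between genotypes across the arrays, and the mean log2 ratio was 0.06 ± 0.09, a difference smaller than the spread between arrays.

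The highest ratio of the group was on a probe named Cyp2b9, after the other enzyme of female liver. The transcripts listed for this probe also include Cyp2b10, as described below. On A_51_P467076 the signal was 2846 in WT and 18801 in DKO on the first array, and 3498 and 20728 on the second. The log2 ratios of 2.45 and 2.33 differed little between dye orientations and averaged 2.39 ± 0.09 or 5.24-fold (2.65 ± 0.11 with the software's ratios). This was the second highest mean of all measured probes. Among the 2080 measured probes within 0.5 log2 units of its average intensity, the central 95% of means ran from -0.31 to 0.45. With this probe included, 8 of the 2080 were called higher, against 32 of all 32424 measured probes (0.0987%). The group was chosen on these ratios, so the place of this probe among the others is a description and no test. The other Cyp2b9 probe, A_52_P256914, read 1231 in WT and 1742 in DKO on the first array and 1165 and 2424 on the second. DKO was above WT on both arrays, at log2 ratios of 0.34 and 0.70 and a mean of 0.52 ± 0.25 or 1.43-fold, which the rule did not call.

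Cyp2b19, the keratinocyte epoxygenase, read nearly the same in both genotypes. On A_51_P352763 the signal was 5442 in WT and 5793 in DKO on the first array, and 5546 and 5122 on the second, so that the direction turned with the dyes. The mean log2 ratio was -0.0026 ± 0.11. The second probe, A_52_P421626, read 1818 and 2077 on the first array and 1322 and 1368 on the second, with a mean of 0.08 ± 0.08. For Cyp2b23, whose function is little described, a probe outside the name rule was found after its values were seen: A_51_P330380 is described in the files as LOC243881, the gene ID of Cyp2b23 in RefSeq. Its signal was 1884 in WT and 2204 in DKO on the first array and 1863 and 2170 on the second, a mean log2 ratio of 0.15 ± 0.10, and it was not called.

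**Figure D2:**
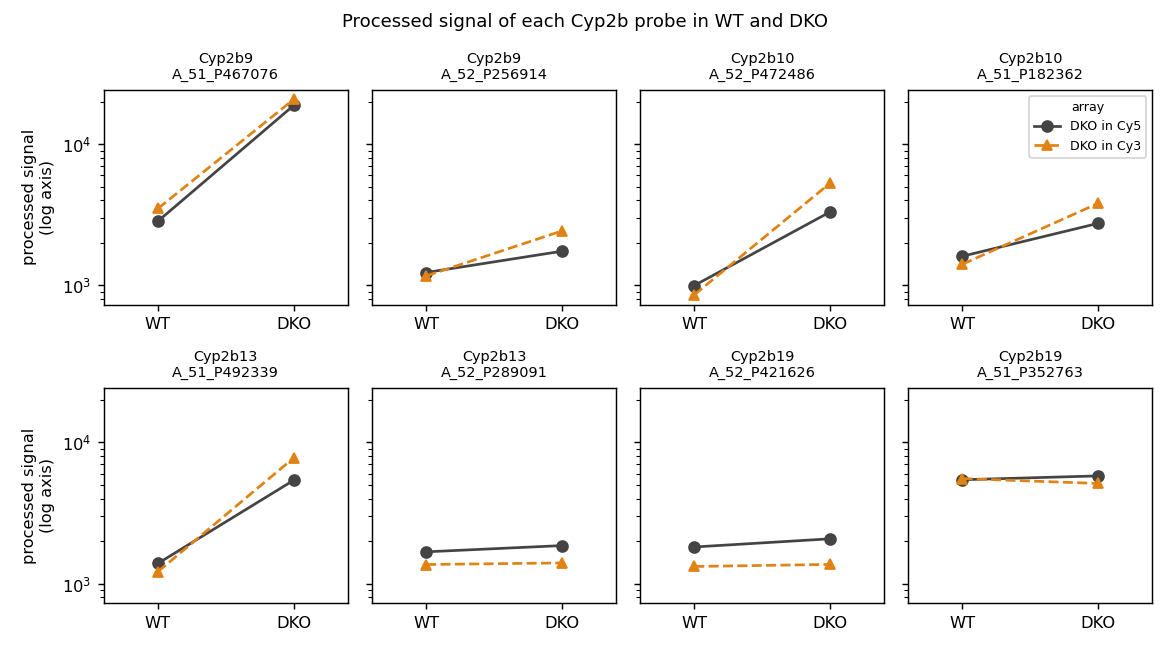
The processed signal (vertical axis, log scale) of each Cyp2b probe is plotted for WT and DKO, with solid lines for the array with DKO in Cy5 and dashed lines for the array with DKO in Cy3. The lines climb steeply for Cyp2b9 A_51_P467076 (2846 to 18801 and 3498 to 20728), and stay nearly level for both Cyp2b19 probes and for Cyp2b13 A_52_P289091.

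Probes of 1 gene are not replicates, since they read different stretches of transcript, and their differences were taken within each array. The Cyp2b9 probes differed by 2.11 and 1.63 on the log2 scale, a mean of 1.87 ± 0.34 or 3.65-fold. The Cyp2b13 probes differed by 1.36 and 2.04, a mean of 1.70 ± 0.48 or 3.25-fold. These gaps were several times the spread between arrays. The Cyp2b10 probes differed by 0.61 and 0.79, a mean of 0.70 ± 0.13 or 1.63-fold, which became 1.08 ± 0.17 with the software's ratios. The Cyp2b19 probes differed by 0.08 ± 0.03.

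Such gaps between probes of a gene were uncommon on these arrays. Of 3149 genes with several measured probes, the median range of probe means was 0.059, and 3 genes (0.0953%) had a range of at least 1 on the log2 scale. Cyp2b9 and Cyp2b13 had the widest and second widest ranges, and the fatty acid transporter Slc27a2 followed at 1.02. Cyp2b10 ranked 13 and Cyp2b19 ranked 1219. A wide range needs a probe with a large ratio, and the members were chosen on these ratios. Nothing is therefore read from their ranks.

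**Figure D3:**
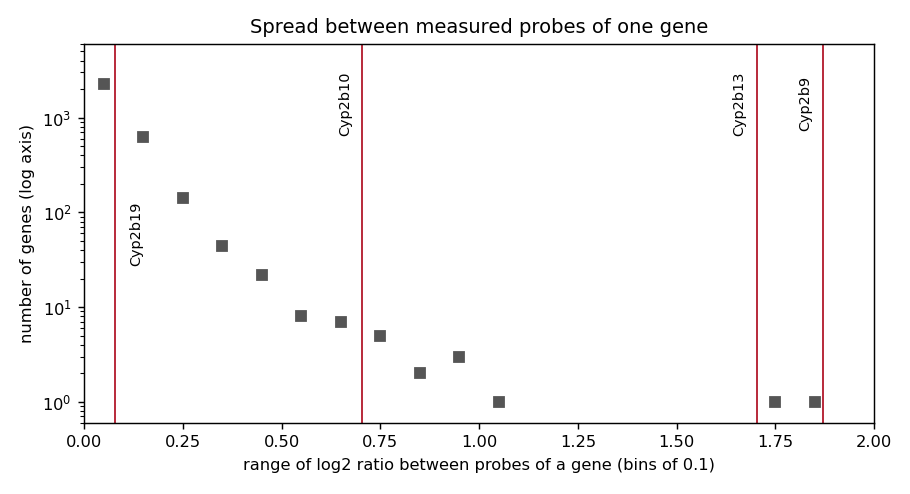
The number of genes (vertical axis, log scale) is plotted against the range of the mean log2 ratio between measured probes of a gene (horizontal axis, bins of 0.1), with red lines at the Cyp2b genes. Cyp2b13 at 1.70 and Cyp2b9 at 1.87 stand beyond all other genes, and Cyp2b19 at 0.08 lies among the bulk. The members were chosen on these ratios, so their places are a description.

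The spot files list, for each probe, the transcripts that the array's design assigned to it, and this list, examined after the ratios were seen, divided the Cyp2b probes. The RefSeq transcript NM_009999, which belongs to Cyp2b10, was listed for 3 probes: Cyp2b10 A_52_P472486, Cyp2b9 A_51_P467076 and Cyp2b13 A_51_P492339. These were the 3 called probes, with a median log2 ratio of 1.76. The other 5 probes, whose lists lack it, ranged from -0.0026 to 0.81 with a median of 0.08. The probe named Cyp2b9 with the high ratio listed both Cyp2b9 and Cyp2b10, whereas its lower partner listed only Cyp2b9. The probe named Cyp2b13 with the high ratio listed Cyp2b13, Cyp2b9 and Cyp2b10, whereas its lower partner listed only Cyp2b13. The uncalled Cyp2b10 probe listed only NM_009998, which the RefSeq gene table used here did not match to a gene, and the called Cyp2b10 probe listed NM_009998 as well as NM_009999. Which of the listed transcripts each probe reads in this tissue was not tested, so the ratios of the shared probes cannot be assigned to 1 paralog. Across the arrays, 215 of 15993 measured probes that list a RefSeq gene list several (1.34%). Of those 215, 2 were called higher, namely the Cyp2b9 and Cyp2b13 probes above, against 32 of all 32424 measured probes (0.0987%). Both are members chosen on these ratios, so nothing is read from their share.

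The dye orientations differed in size for most of the higher Cyp2b probes. On 4 of the 5 probes with a mean above 0.5, the array with DKO in Cy3 gave the larger ratio, and Cyp2b9 A_51_P467076 was the exception. All 5 were above 0 on both arrays, which choosing them by their mean makes likely. Over all measured probes, the array with DKO in Cy3 alone called 65 higher and 9 lower, and the other alone 33 and 39. More higher calls with DKO in Cy3 were therefore not particular to the Cyp2b probes. The gap between the arrays reached 0.66 on Cyp2b10 A_52_P472486. With 1 array per orientation, dye effects, array noise and any difference in the RNA cannot be told apart in this gap.

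**Figure D4:**
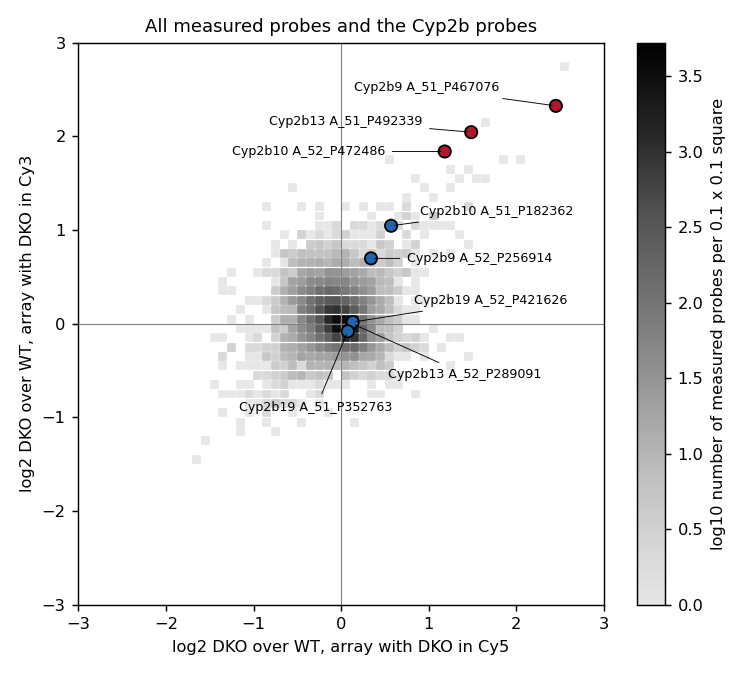
The log2 ratio on the array with DKO in Cy3 (vertical axis) is plotted against that on the array with DKO in Cy5 (horizontal axis), with grey squares shaded by the number of measured probes and points for the 8 Cyp2b probes (red, accession list with NM_009999; blue, without). The red points lie at the upper right, at (2.45, 2.33), (1.48, 2.04) and (1.18, 1.84), and the Cyp2b19 points lie within the central mass.

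Genes beside the Cyp2b genes were examined next. Along chromosome 7 the order is Cyp2s1, Cyp2b10, Cyp2b13, Cyp2b9, Cyp2a4, Cyp2b23, Cyp2b19, Cyp2g1, Cyp2a5 and Cyp2f2, with pseudogenes and other genes between them. The 18 measured neighbours, counted out to 8 genes on each side of the P450 stretch, ranged from -0.14 to 0.19 with a median of -0.0057, and none was called. With the software's ratios they ranged from -0.27 to 0.38 with a median of 0.01, and 0 were called. The retinoic acid hydroxylase Cyp2s1, next to Cyp2b10, read -0.01 ± 0.11. Cyp2a4, a steroid hydroxylase beyond Cyp2b9, read 0.11 ± 0.02 (0.38 ± 0.0040 with the software's ratios). The coumarin hydroxylase Cyp2a5 read 0.02 ± 0.22, the olfactory enzyme Cyp2g1 -0.04 ± 0.05 and the lung enzyme Cyp2f2 -0.14 ± 0.10 (-0.27 ± 0.19 with the software's ratios). Cyp2a12 was not well above background, and Cyp2a22 and Cyp2t4 were not analysed here.

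**Figure D5:**
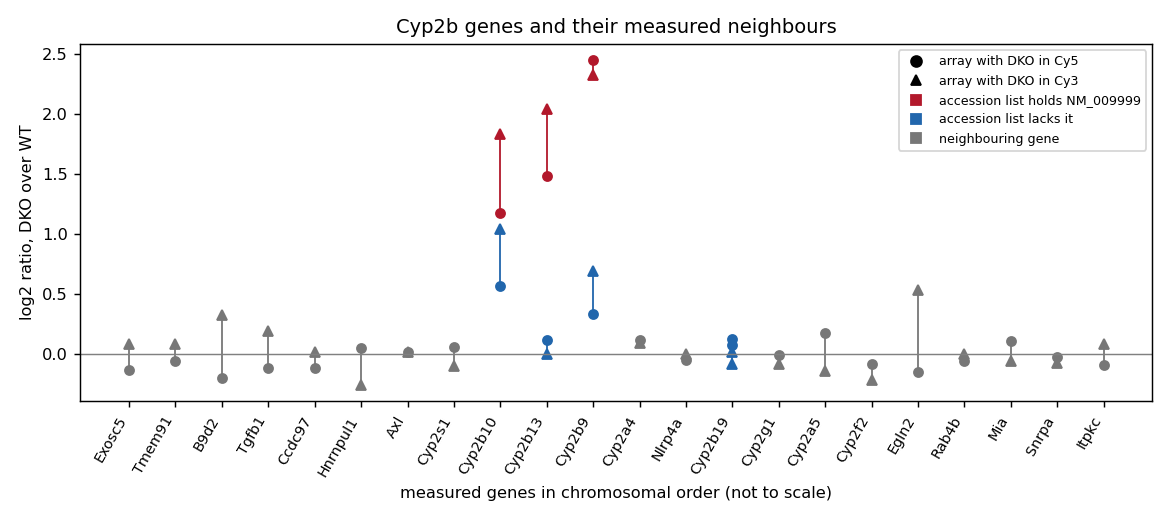
The log2 ratio of DKO over WT (vertical axis) is plotted for the measured genes of the region in chromosomal order (horizontal axis, not to scale), with circles and triangles for the arrays with DKO in Cy5 and Cy3. Only probes named Cyp2b10, Cyp2b13 and Cyp2b9 reach means of 1.51 to 2.39. The neighbours stay between -0.14 and 0.19 as means (-0.27 and 0.38 with the software's ratios). The points plotted are single arrays, on which neighbours reach -0.25 (Hnrnpul1) and 0.54 (Egln2), both with DKO in Cy3.

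Lists of genes that act with the Cyp2b enzymes were counted by the same rule, beside the 14101 measured genes with a symbol, of which 24 were called higher (0.170%) and 7 lower (0.0496%) and whose median was 0.00084. Of those 14101 genes, 2704 were above 0 and 2710 below 0 on both arrays. Of the CAR and PXR receptors and their partners, 12 of 14 were measured, 0 were called and the median was 0.03 (-0.04 and 0.18 on the first and second array). Its brightest members were the chaperone Hsp90aa1, which holds CAR in the cytosol (0.41 ± 0.11), and the coactivator Ncoa1 (0.02 ± 0.27). The receptors themselves, named after their values were seen, read -0.02 ± 0.08 for Nr1i3 (CAR) and -0.02 ± 0.12 for Nr1i2 (PXR), both smaller than the spread between arrays. Of the known CAR and PXR targets outside Cyp2b, 28 of 37 were measured, 0 were called, 8 were above 0 and 6 below 0 on both arrays, and the median was 0.02 (0.04 and -0.01 on the single arrays). The brightest were the glutathione transferases Gstm1 (0.17 ± 0.23) and Gstm3 (0.15 ± 0.07).

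The genes that supply P450 enzymes with electrons and heme were all measured, 15 of 15, and 0 were called, with a median of 0.06. On the first array alone this median was 0.03 and on the second alone 0.21. Por, the reductase that passes electrons from NADPH, read 0.25 ± 0.08, and Cyb5b, the outer mitochondrial cytochrome b5, read -0.51 ± 0.09. Of the other Cyp2 enzymes outside the cluster, 10 of 17 were measured and 0 were called, with a median of -0.00099 (-0.02 and 0.0071 on the single arrays). The brightest, Cyp2c70, a bile acid hydroxylase, and Cyp2d9, a male-predominant steroid hydroxylase, read -0.02 ± 0.06 and -0.04 ± 0.06.

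Markers of the tissue and of other cell types were read on the same arrays. All 9 brown adipocyte markers were measured, and 2 were called higher, the fatty acid elongase Elovl3 (1.02 ± 0.02) and the deiodinase Dio2 (1.89 ± 0.32). Their median was 0.18, with 6 above 0 and 1 below 0 on both arrays. Ucp1, the uncoupling protein that makes heat, read 0.73 ± 0.0047, and the lipid droplet protein Cidea read -0.14 ± 0.02. Prdm16 (-0.08 ± 0.29) and Cox8b (0.0077 ± 0.30) differed in sign between arrays, and these 4 uncalled markers were named after their values were seen. Of 9 measured hepatocyte markers 0 were called, their median was 0.02, and their summed signal was 23577 in WT and 24153 in DKO on the first array and 24224 and 26948 on the second. The brightest, Tat and Alb, read -0.05 ± 0.12 and 0.18 ± 0.04. Of 8 measured keratinocyte markers 0 were called, their median was 0.02, and their summed signal was 31711 and 33026 on the first array and 29108 and 29090 on the second. Sfn and Krt5, the brightest, read 0.08 ± 0.21 and 0.01 ± 0.02. Of 9 measured skeletal muscle markers 0 were called, but 7 were above 0 on both arrays and their median was 0.63 (0.44 and 0.80 on the single arrays). Their summed signal was 91958 in WT and 128158 in DKO on the first array and 89840 and 173077 on the second, and Tnni2 (0.63 ± 0.25) and Acta1 (0.84 ± 0.36) were the brightest. Every marker with a probe was measured, and a measured marker passes the background test by definition. Whether each cell type was present was not tested, nor was the part of muscle RNA in the Cyp2b values. In whole tissue, fewer cells of a type and less RNA per cell cannot be told apart.

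The measured genes with a symbol that lay nearest to Cyp2b9 A_51_P467076 were found by the Euclidean distance between the log2 ratios of the 2 arrays. They were the metallothionein Mt2 (distance 0.716, mean 1.90 ± 0.27), the F-box protein gene Fbxo31 (0.800, 1.82 ± 0.04), Dio2 (0.811, 1.89 ± 0.32), the gluconeogenic enzyme Pck1 (1.13, 1.59 ± 0.06) and the guanine nucleotide reductase Gmpr (1.20, 1.55 ± 0.07). With 2 arrays the measure reflects the size of the ratio and little else.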

How the data were processed

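RNA of WT and DKO brown fat was hybridised together on 2 dye-reversed Agilent arrays, per the labels. Scans were read by the authors in Agilent Feature Extraction 7.5, per the submitters' processing notes. The deposited spot files hold intensity on a linear scale, log10 ratios of red over green made by the software, their error-model p-value and flags, per the file headers. The flag for well above background used 2.6 background SDs, per the file headers. The deposited value table holds log2 ratios, which matched the software's red over green within 0.001 for 40962 of 41001 and 41101 of 41141 spots. Both columns had a median of 0, and its later processing is not stated here.

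Mean spot signals were corrected with normexp (offset 50) and loess-normalised within arrays in limma 3.58.1 under R 4.3.3, with control spots at weight 0. The offset shrinks ratios of dim probes. Ratios were turned to DKO over WT and averaged. Outlier spots were left out (171 and 29), saturated spots kept (12 and 14), and 40979 probes remained on both arrays. Gene names came from RefSeq (assembly GRCm38.p6): 11387 by accession, 2287 by symbol, 1299 by older symbol, 5772 by a single gene in the accession list, 20234 not at all. A gene was its brightest measured probe. Other steps used Biopython 1.88 (promoter alignment), matplotlib 3.10.9, pandas 2.3.3 and numpy 2.4.6 under Python 3.11.15.

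The members and lists were chosen with earlier results of these data known. Named genes were every Cyp2b probe, the called genes of each list or else its 2 brightest, and the 5 genes nearest to the highest Cyp2b probe. The call rule, tested on simulated data, called 2 of 50 probes changed 2-fold, 26 of 50 at 3-fold, 37 of 50 at 4-fold and 38 of 50 at 8-fold. It called 0 of 40974 unchanged probes. The noise of the simulation was set and not taken from these arrays. The alternatives changed the offset, took the software's ratios or the value table, or changed the spot summary, the normalisation, the filter on dim probes, the size thresholds or the call rule (error model), or used each array alone. A planned comparison of probe sequences was replaced by the deposited accession lists, and probe sequences were not used here. The level of 1 gene lost in DKO is not reported here.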

Additional observations from a re-analysis of the deposited data

How the results depend on the processing

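The 3 Cyp2b calls (Cyp2b9 A_51_P467076, Cyp2b13 A_51_P492339, Cyp2b10 A_52_P472486) were made under every alternative except that the 3-fold threshold left out the Cyp2b10 probe (2 calls). Calls numbered 4, adding Cyp2b10 A_51_P182362, with the software's ratios, the value table, the 1.5-fold threshold and without the array with DKO in Cy5, and 5, adding Cyp2b9 A_52_P256914, with the error-model p on both arrays. Single arrays gave 3 to 4, and no alternative called a Cyp2b probe lower. Cyp2b9 A_51_P467076 read 2.55 with offset 16, 2.65 in both the value table and the software's ratios, 2.52 with median centring, and 2.33 to 2.45 on single arrays. By the value table and likewise by the software's ratios, Cyp2b13 A_51_P492339 read 2.32 and Cyp2b10 A_52_P472486 read 2.18, and single arrays gave 1.48 to 2.04 and 1.18 to 1.84.

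Over all measured probes, the 32 higher calls became 61 with the software's ratios, 61 with the value table, 104 at 1.5-fold, 7 at 3-fold and 160 with the error model, and 33 to 65 on single arrays. The 7 lower calls became 13 with offset 16, 33 with the software's ratios, 33 with the value table, 74 at 1.5-fold, 0 at 3-fold and 137 with the error model, and 9 to 39 on single arrays. Higher calls made up 64.9% with the software's ratios, 90.0% with median centring and 45.8% to 87.8% on single arrays, against 82.1%. Of the lists around Cyp2b, the error model called 1 gene higher and 2 lower, and single arrays called 0 to 1 lower. The causes of these changes were not tested. With 1 replicate per genotype no p-value between genotypes was possible. No paired analysis was possible because no unpaired one exists to set beside it: every ratio already pairs WT with DKO on 1 array.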

Other observations

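Several genes of the lists around Cyp2b differed in the same direction on both arrays without meeting the rule, and were named after their values were seen. Cyp2e1, a P450 that oxidises ethanol and fatty acids, read 0.52 ± 0.20 (SD, n = 2 arrays) and stayed below 2-fold on each array, at 0.38 and 0.66. Ppargc1a, a coactivator of mitochondrial genes, read 0.54 ± 0.04, and the glutathione transferase Gsta4 read 0.45 ± 0.25. Aldh1a7, an aldehyde dehydrogenase, was lower in DKO at -0.51 ± 0.08, and Alas1, the first enzyme of heme synthesis, read -0.26 ± 0.20.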
